A study of Mus musculus with 6 samples.

Results

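The transcription factor Atf4 and 9 genes of its amino acid stress programme were read in 6 RNA-seq libraries of mouse corneal epithelium. The genes were Atf4, its relative Atf5, the feedback gene Trib3, the glutathione-degrading Chac1 and asparagine synthetase Asns. With them were the serine synthesis genes Phgdh, Psat1 and Psph, and the mitochondrial one-carbon genes Shmt2 and Mthfd2. The 10 genes were found by symbol in the deposited table, which held all of them among 17866 genes. All 10 had enough counts to be tested, among 13305 genes in total. They had been picked from their counts in the same libraries, because several of them stood out in 1 wild type library, so their spread among the wild type libraries is given here as a description, without a test.

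The libraries came from the separated corneal epithelium of C57BL/6 mice aged 6 months, 3 labelled WT and 3 labelled Rela-/- (KO). According to the study's methods, the KO mice were Krt14-Cre; Rela f/f, so that Rela, the gene of the NF-κB subunit p65, was removed from cells with Krt14-Cre activity and not from other cells of the tissue. The study names 3 independent biological samples and does not say how many animals made up each, and WT is the only description that the labels give of the controls.

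In stressed or amino acid-starved cells, kinases phosphorylate the initiation factor eIF2, general translation falls, and the Atf4 mRNA is translated more efficiently. The Atf4 protein then binds composite C/EBP-ATF elements and raises genes for amino acid uptake, for asparagine and serine synthesis, for tRNA charging and for feedback inhibitors such as Trib3. Mitochondrial Shmt2 and Mthfd2 pass the carbon of serine into folate metabolism. Because Atf4 is controlled largely at translation, its mRNA level is only a part of its regulation.

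The sequences upstream of the 10 genes were searched for the letters of that element, TGATGNAA, on both strands, since several of these genes were high or low in the same libraries. RefSeq windows of GRCm38.p6, reaching from 250 bases before to 50 bases after each start, were present for all 10 genes, with 12 windows in total. The letters were found in 3 of the 12 windows, those of Asns, Chac1 and Trib3, and in 3.97% of 32851 windows over all genes. The related letters TGACGNAA were found for Chac1 alone among the 10 genes and in 1.59% of all windows. The 250 bases before the starts of Asns and Chac1, and 30 bases around the Trib3 match, are shown because they hold these matches. Trib3 and Asns had the widest spread among the WT libraries, and the WT and KO libraries overlapped for all 3 genes. Capitals mark the matches. In Asns the match read TGATGAAA on the gene's strand. In Chac1 the capitals at the 5′ end are TGACGCAA, and those further on, TTGCATCA, are the reverse complement of TGATGCAA, with no overlap between them. In Trib3 the match was also in reverse complement, at bases 14 to 21 after the start.
Asns (chr6:7693210-7693459, minus strand): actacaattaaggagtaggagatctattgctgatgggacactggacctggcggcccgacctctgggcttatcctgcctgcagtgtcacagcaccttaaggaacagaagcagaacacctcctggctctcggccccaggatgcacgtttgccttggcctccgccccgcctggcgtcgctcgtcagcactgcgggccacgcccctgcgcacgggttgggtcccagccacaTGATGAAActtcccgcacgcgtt
Chac1 (chr2:119350992-119351241, plus strand): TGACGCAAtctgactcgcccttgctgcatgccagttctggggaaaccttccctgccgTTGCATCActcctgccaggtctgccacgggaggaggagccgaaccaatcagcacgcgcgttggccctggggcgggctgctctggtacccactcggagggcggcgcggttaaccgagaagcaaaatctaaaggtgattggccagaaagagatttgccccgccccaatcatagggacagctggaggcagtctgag
Trib3 (chr2:152344028-152344057, minus strand): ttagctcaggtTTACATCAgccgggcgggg

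A match of letters is a description and not evidence of binding, and the windows of the other 7 genes held neither set of letters. For Atf4 and Mthfd2 the RefSeq start lay inside the gene span given below, so the outer start of that span was not searched.

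The libraries were of even depth, with 20158404 to 20880347 estimated counts each. The targeted gene Rela gave 1871, 1844 and 1855 counts for WT and 318, 223 and 313 for KO, which lay -2.60 apart in log2 fold change (adjusted p = 2.74e-06, edgeR). The 6 corneal epithelial marker genes were expressed in every library and were all lower in KO, with a median log2 fold change of -2.12. The summed level of 4 epidermal markers went from between 15.1 and 20.1 CPM (counts per 1000000 of a library, after TMM scaling) in WT to between 10145 and 22708 CPM in KO. The 4 conjunctival and mucosal markers, all higher in KO, summed to between 1873 and 2900 CPM in WT and between 52199 and 66915 CPM in KO. Limbal and basal markers summed to between 2227 and 3712 CPM in WT and between 12060 and 13669 CPM in KO, with 2 of 4 higher. Krt14 made up most of the KO sum, at 9322 to 11212 CPM in KO beside 239 to 1181 CPM in WT. Gpha2 (2.37) was the other higher gene. Krt15 (0.15, adjusted p = 0.483) and Trp63 (0.03, adjusted p = 0.797, edgeR) did not pass. Stromal markers summed to between 0.687 and 2.61 CPM in WT and between 12.8 and 22.5 CPM in KO. Immune markers summed to between 28.6 and 33.8 CPM in WT and between 48.1 and 62.4 CPM in KO. Cd68 made up most of the WT sum and did not pass (log2 fold change 0.09, adjusted p = 0.627, edgeR), while Ptprc (3.69), Csf1r (3.67) and Lyz2 (7.11) were higher in KO. These are bulk samples, in which fewer cells of a type and less RNA per cell cannot be told apart, and the part of cell composition in the differences below was not tested.

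Trib3 (gene 228775, chr2:152337425-152344060, minus strand), a pseudokinase that Atf4 induces and that in turn restrains it, had the widest spread of the 10 genes. Gene positions here and below are those of the deposited table, on GRCm38. It stood at 3, 195 and 4 counts in the WT libraries 1 to 3, against 193, 142 and 173 for KO. Scaled to library size, WT replicate 2 was inside the KO range, at 9.07 CPM beside 7.12 to 9.77 CPM in KO, while the other WT libraries were nearly empty. Over all 6 libraries the log2 fold change of KO over WT was 1.44 with an SE of 1.04 (adjusted p = 0.258, edgeR) and did not pass.

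Asns (gene 27053, chr6:7675165-7693182, minus strand) makes asparagine from aspartate and glutamine. It stood at 246, 1387 and 152 counts for WT against 964, 1305 and 1047 for KO. Again WT replicate 2 fell within the KO range, at 64.5 CPM beside 48.8 to 65.5 CPM in KO, and stood 5.73-fold above the higher of the other WT libraries. The log2 fold change over all libraries was 1.00 with an SE of 0.682 (adjusted p = 0.230, edgeR).

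Mthfd2 (gene 17768, chr6:83305704-83326035, minus strand), the mitochondrial methylenetetrahydrofolate dehydrogenase, stood at 94, 451 and 81 counts for WT against 221, 308 and 340 for KO. WT replicate 2 was above every KO library here, and WT replicates 1 and 3 were below all of them. The log2 fold change was 0.58 with an SE of 0.580 (adjusted p = 0.409, edgeR).

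Atf5 (gene 107503, chr7:44812256-44816658, minus strand), a transcription factor of the same family that is also controlled at translation, stood at 551, 1752 and 444 counts for WT against 981, 729 and 931 for KO. The WT replicate 2 value of 81.5 CPM was 1.64 times the highest KO value, whereas WT replicates 1 and 3 lay below the KO libraries. With these opposite positions the log2 fold change was 0.05 with an SE of 0.455 (adjusted p = 0.928, edgeR), and its sign turned when library totals alone set the scale (-0.04) and without WT replicate 1 (-0.20), WT replicate 3 (-0.26) or KO replicate 1 (-0.04). Without WT replicate 2 it was 0.94 and passed.

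Atf4 (gene 11911, chr15:80253409-80257545, plus strand) did not share this pattern among the WT libraries. It stood at 2069, 2869 and 2757 counts for WT against 4712, 4514 and 4898 for KO. WT replicate 2 was 1.02 times WT replicate 3, and the lowest KO library was well above the highest WT library. The WT mean of Atf4 mRNA was 120 ± 21.5 CPM against a KO mean of 236 ± 9.04 CPM (± SD, n = 3 each). The log2 fold change was 0.98 with an SE of 0.137 (adjusted p = 3.67e-04, edgeR).

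The 3 enzymes that make serine from 3-phosphoglycerate behaved unequally. Phgdh (gene 236539, chr3:98313171-98339969, minus strand), which catalyses the committed step, stood at 1901, 2417 and 1724 counts for WT against 2121, 2166 and 2115 for KO. The groups overlapped, WT replicate 2 was highest of all 6 libraries, and the log2 fold change of 0.19 did not pass (SE 0.124, adjusted p = 0.204, edgeR). The KO values of Phgdh were close together, at 107 ± 1.65 CPM (mean ± SD, n = 3).

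Psat1 (gene 107272, chr19:15905123-15925059, minus strand), the aminotransferase of the next step, stood at 1453, 2362 and 1559 counts for WT against 3007, 3779 and 3483 for KO. Every KO library lay above every WT library, although WT replicate 2 was 1.49 times the higher of the other WT libraries. The log2 fold change was 1.04 with an SE of 0.185 (adjusted p = 0.00135, edgeR).

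Psph (gene 100678, chr5:129765368-129787253, minus strand), the phosphatase that releases serine, stood at 133, 215 and 121 counts for WT against 337, 453 and 368 for KO. The groups did not overlap, and WT replicate 2 was again the highest WT library. The log2 fold change was 1.41 with an SE of 0.224 (adjusted p = 7.47e-04, edgeR), and Psph was the 1 gene of the 10 that met the study's threshold of an adjusted p of at most 0.001 with a fold change of at least 2. Atf4 (fold change 1.98), Psat1 (adjusted p = 0.00135) and Shmt2 (adjusted p = 0.00109, edgeR) missed it narrowly. When 1 library other than WT replicate 2 was left out, 0 of the 10 met it in each case. That threshold was met by 19.8% of all tested genes in either direction and by 11.6% with higher levels in KO.

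Shmt2 (gene 108037, chr10:127517123-127522444, minus strand), which splits serine into glycine and a one-carbon unit in mitochondria, stood at 778, 1263 and 701 counts for WT against 2109, 1745 and 2155 for KO. The groups did not overlap. The log2 fold change was 1.24 with an SE of 0.211 (adjusted p = 0.00109, edgeR).

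Chac1 (gene 69065, chr2:119351242-119354326, plus strand), which degrades glutathione and is a known target of the Atf4 pathway, stood at 966, 1115 and 1310 counts for WT against 1112, 1103 and 1226 for KO. It was the 1 gene of the 10 whose highest WT library was not replicate 2. Its groups overlapped and its log2 fold change was 0.13 with an SE of 0.128 (adjusted p = 0.411, edgeR).

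**Figure D1:**
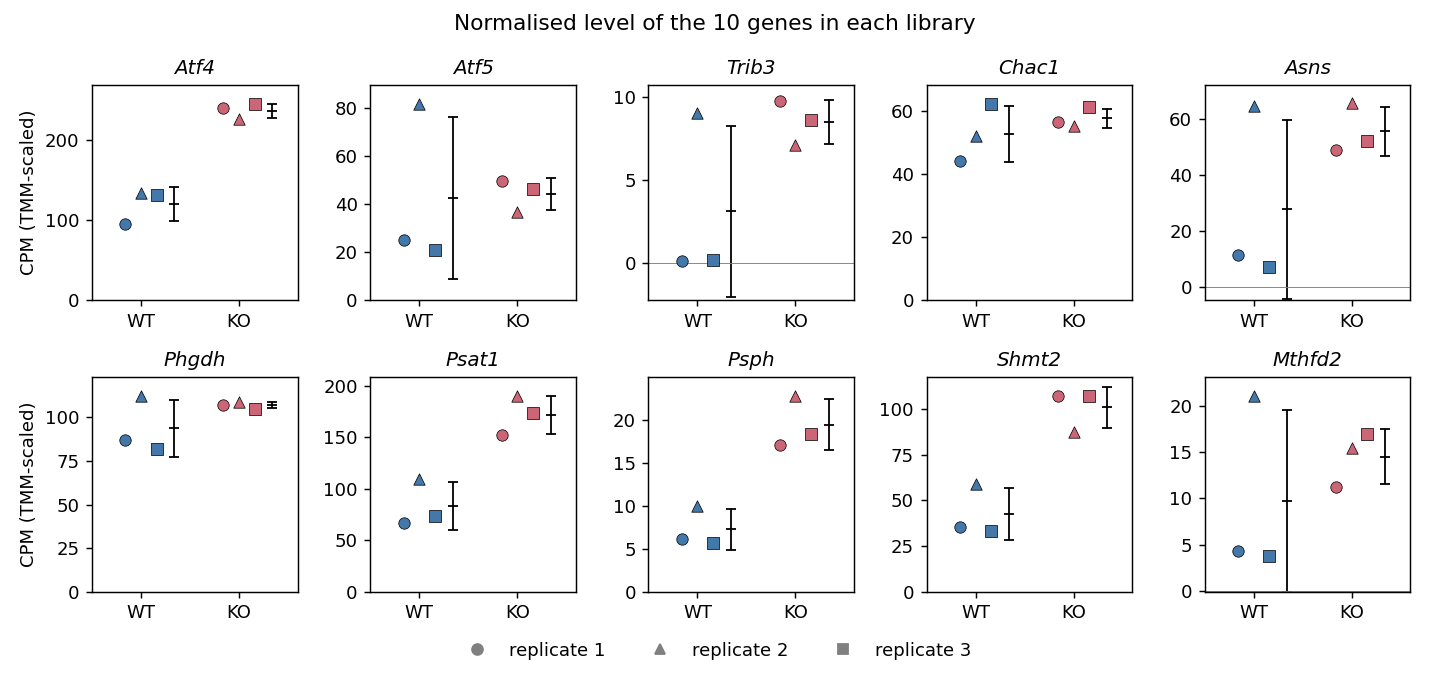
Normalised level of the 10 genes in each library, in CPM scaled by TMM factors, with a separate linear axis for each gene. Points are libraries (circle, triangle and square for replicates 1, 2 and 3) and the bars beside them are mean ± SD of 3 libraries. WT replicate 2 was highest of the WT libraries for 9 of the 10 genes, at 9.07 CPM for Trib3 beside 0.137 and 0.189 CPM in the others.

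At an adjusted p of 0.05 (edgeR), KO was higher for 4 of the 10 genes (Atf4, Psat1, Psph and Shmt2), lower for 0, and 6 did not pass. Among all tested genes 62.0% passed, 31.8% with higher and 30.2% with lower levels in KO. The median log2 fold change was 0.99 over the 10 genes and 0.01 over all genes. Every KO library lay above every WT library for 4 of the 10 genes, beside 34.7% of all genes, and above WT replicates 1 and 3 for 9 of the 10, beside 37.7%. WT replicate 2 lay above every KO library for 3 of the 10 (Atf5, Mthfd2 and Phgdh), beside 41.3% of all genes, and within the KO range for Trib3 and Asns. Because the same WT libraries served to pick the genes, these counts are not independent of that choice.

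WT replicate 2 was the highest WT library for 9 of the 10 genes, and for 6 of them it was at least 1.5 times the higher of the other WT libraries. Among all tested genes 33.1% were highest in WT replicate 2, 32.2% in WT replicate 1 and 34.1% in WT replicate 3, and 4.08% passed the factor of 1.5 there, beside 1.55% for WT replicate 1 and 3.02% for WT replicate 3. The coefficient of variation among the WT libraries had a median of 32.9% over the 10 genes and of 9.79% over all genes. Among the KO libraries the medians were 13.2% and 11.6%, and the highest value was 1.37 times the lowest for Trib3, 1.34 times for Asns, 1.36 times for Atf5 and 1.51 times for Mthfd2.

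The genotype fit was repeated without WT replicate 2, the library in which several of the genes had stood out. Then 9 of the 10 genes passed with higher levels in KO, 0 with lower levels, and Chac1 did not pass (adjusted p = 0.527, edgeR). Of all genes tested in this fit 58.1% passed, 31.2% higher and 26.9% lower. The study's threshold was met by 7 of the 10 genes, beside 17.8% of all genes in either direction and 10.4% with higher levels in KO. The median log2 fold change of the 10 genes became 1.43, beside 0.04 for all genes. Trib3 moved to a log2 fold change of 5.66 (SE 0.337), Asns to 2.59 (SE 0.224), Mthfd2 to 1.84 (SE 0.213) and Atf5 to 0.94 (SE 0.163). Atf4 moved least among the called genes, to 1.08 (SE 0.155). Phgdh passed with a log2 fold change of 0.35 (adjusted p = 0.0177, edgeR). Several of the genes had been picked for being high in that library, so taking it out must widen the difference for those genes. For Chac1, which was not highest there, the log2 fold change went from 0.13 to 0.12. Nothing more is read from the gain in calls. Leaving out any other single library kept the count of called genes at 4.

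**Figure D2:**
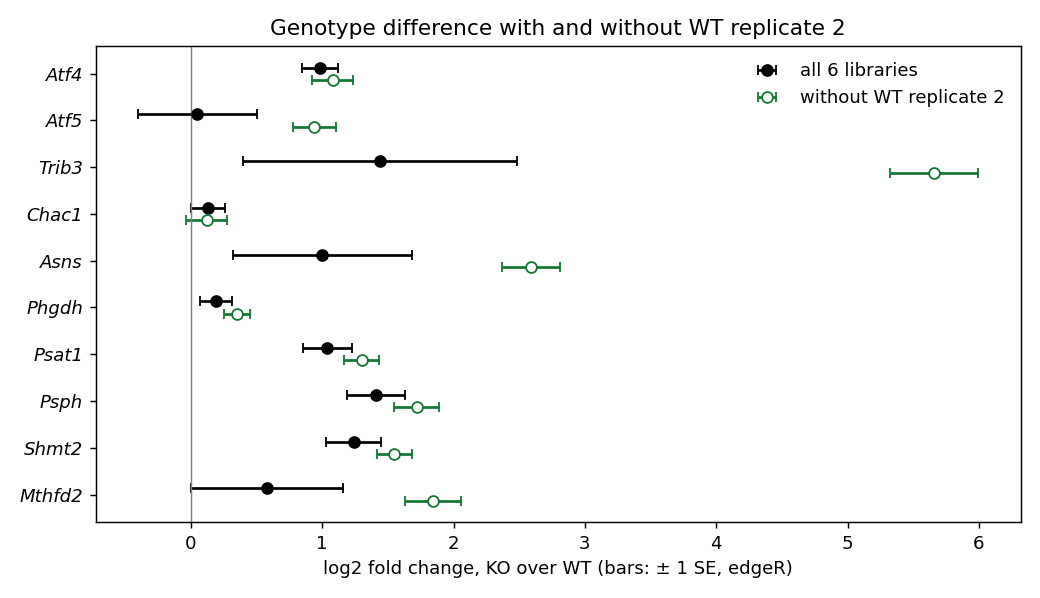
Log2 fold change of KO over WT for each of the 10 genes from edgeR, with all 6 libraries (filled) and without WT replicate 2 (open), and bars of 1 SE on each side. Trib3 lies at 1.44 with all libraries and at 5.66 without that library, while Atf4 lies at 0.98 and 1.08.

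Levels of different genes were compared per length, with the FPKM values of the authors. In KO the order was led by Atf4 (146 ± 2.71 FPKM), followed by Psat1 (76.2 ± 9.72), Phgdh (55.4 ± 1.76), Shmt2 (42.0 ± 3.98) and Chac1 (35.6 ± 1.71, mean ± SD, n = 3). Psat1 lay above Phgdh in every KO library. Shmt2 likewise lay above Chac1 in every KO library, although their ranges met, at 37.4 to 44.6 and 34.3 to 37.5 FPKM. Asns (24.1 to 33.5 FPKM) and Atf5 (20.9 to 27.3 FPKM) were not separated. Psph (10.6 to 14.6 FPKM), Mthfd2 (5.09 to 7.84 FPKM) and Trib3 (3.43 to 4.53 FPKM) were the lowest and did not overlap each other.

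In WT, Atf4 was again the highest gene, at 79.6 ± 13.4 FPKM, and Phgdh (51.9 ± 9.33 FPKM) stood above Psat1 (39.6 ± 10.9 FPKM, mean ± SD, n = 3) in the means, with ranges of 44.2 to 62.3 and 32.2 to 52.1 FPKM that overlapped. Within each WT library, however, Phgdh was above Psat1, with 49.16, 62.29 and 44.24 FPKM for Phgdh beside 32.24, 52.11 and 34.32 FPKM for Psat1. The order of these serine enzymes was thus opposite in each KO library. This comparison was made after the values were seen and was not tested.

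The genes whose levels over the 6 libraries were most like the mean of the 10 genes were Mfsd10 (Pearson r = 0.999), Uba1 (0.997), Tk1 (0.994), Mnat1 (0.993) and Cdc25a (0.993), among 10447 other genes with a mean count of at least 100. Mfsd10 stood at 664, 894 and 641 counts for WT against 843, 867 and 886 for KO, so its differences were far smaller in size than those of Trib3. Tk1 stood at 327.12, 598.63 and 317.19 counts for WT against 583.91, 663 and 659 for KO. Over 6 libraries such values are a description, and 96 genes reached an r of at least 0.95.

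Other genes that Atf4 and its C/EBP partners are known to raise were read from a list of 24, of which 23 were tested. Of these, 11 passed as higher and 6 as lower in KO (edgeR), beside 31.8% and 30.2% of all tested genes. The median log2 fold change was 0.46. Nupr1, a small stress-induced nuclear protein, stood at 12, 97 and 23 counts for WT against 841, 1340 and 1253 for KO, a log2 fold change of 4.80 with an SE of 0.558 (adjusted p = 1.38e-04). Gpt2, the mitochondrial alanine aminotransferase, rose by 2.29 on the log2 scale (SE 0.222, adjusted p = 5.29e-05), and Atf3, another stress-induced factor of the family, with 3.28 (SE 0.777, adjusted p = 0.00622). Atf3 stood at 8, 35 and 13 counts for WT against 75, 71 and 363 for KO, so KO replicate 3 was far above the other KO libraries. Stc2, a secreted stanniocalcin, had 0 counts in each WT library and 11, 15 and 18 in KO, so the KO mean was at least 4.89-fold higher than a floor of 3 counts per library. The list held genes in both directions, and of those that fell Jdp2 (-1.29) and Pck2 (-0.72) changed most. Ddit3, which encodes the factor CHOP, gave 185.29, 171.16 and 147 counts for WT and 152.55, 171.57 and 179.44 for KO and did not pass (adjusted p = 0.502, edgeR). These 3 genes were looked up after their values were seen.

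In the same list 16 of 23 genes were highest in WT replicate 2 among the WT libraries, and 8 passed the factor of 1.5. The shares of all tested genes were 33.1% and 4.08%. The ratios to the higher of the other WT libraries were led by Nupr1 (4.14), Vegfa (3.16), Gdf15 (3.14) and Aldh18a1 (2.90). Aldh18a1, which makes the precursor of proline, stood at 225, 643 and 131 counts for WT against 499, 523 and 569 for KO, so that WT replicate 2 was above every KO library. Without WT replicate 2, 13 genes of this list were higher and 5 lower in KO, beside 31.2% and 26.9% of all genes.

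**Figure D3:**
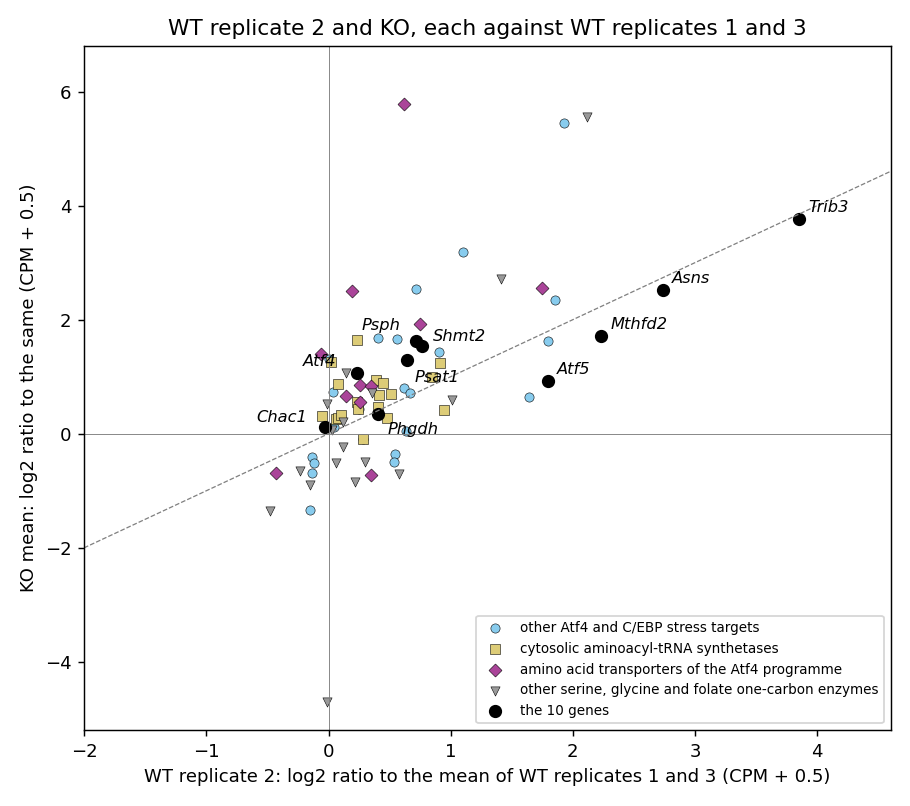
Each point is a gene, placed by the log2 ratio of WT replicate 2 (horizontal) and of the KO mean (vertical) to the mean of WT replicates 1 and 3, after adding 0.5 CPM; the dashed line marks equal ratios. Trib3 and Asns lie near that line, Atf5 and Mthfd2 below it, and Psph, Psat1, Shmt2 and Atf4 above it.

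Of 19 listed cytosolic aminoacyl-tRNA synthetases, which charge tRNAs with amino acids, 14 were higher and 0 lower in KO. The shares of all tested genes were 31.8% and 30.2%. The median log2 fold change of the 19 was 0.48. Rars (1.57, SE 0.101, adjusted p = 6.42e-06, edgeR) and Hars (1.27, SE 0.0914, adjusted p = 1.14e-05) rose most, followed by Cars (0.87) and Farsb (0.86). Rars stood at 1102, 1313 and 1131 counts for WT against 3067, 3487 and 3223 for KO, with nearly even WT libraries. In WT replicate 2, 18 of the 19 were the highest of the WT libraries, beside 33.1% of all tested genes. Of the 19, only Aars (1.91), Cars (1.89) and Gars (1.76) passed the factor of 1.5, beside 4.08% of all tested genes. Nars, a further synthetase, was counted among the other Atf4 targets above and was named after its values were seen. Its ratio was 1.55, and its log2 fold change of 0.46 did not pass (adjusted p = 0.0571, edgeR). Aars stood at 1672, 3147 and 1570 counts for WT against 1813, 2077 and 2157 for KO and did not pass between genotypes (adjusted p = 0.926, edgeR).

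Amino acid transporters of the programme included 9 higher and 1 lower gene in KO among 11, beside 31.8% and 30.2% of all tested genes. Their median log2 fold change was 0.76. Slc7a11, the cystine transporter, stood at 6.93, 21.55 and 14.5 counts for WT against 1025.4, 1307.67 and 896.99 for KO, a log2 fold change of 6.33 with an SE of 0.300 (adjusted p = 1.55e-06, edgeR). RSEM gave it fractional counts, so part of its reads also fit another locus. Slc1a4, a carrier of alanine, serine and cysteine, rose with 2.49 (SE 0.133, adjusted p = 2.52e-06), and Slc7a5, which imports large neutral amino acids, with 1.73 (SE 0.449, adjusted p = 0.00943). Slc38a1 stood at 1, 1 and 2 counts for WT against 13, 19 and 28 for KO (adjusted p = 3.68e-04). Slc7a1, which imports arginine and lysine and was named after its values were seen, was the gene that fell, with -0.84. Slc7a5 had 327, 1009 and 258 counts in WT, so WT replicate 2 was 3.13 times the higher of the others. Slc1a5 (1.71) and Slc7a11 (1.54) also passed the factor of 1.5, which 4.08% of all tested genes passed.

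Other enzymes of serine, glycine and folate metabolism went in both directions. Of 17 tested, 5 were higher and 9 lower in KO, beside 31.8% and 30.2% of all tested genes. Their median log2 fold change was -0.27. Aldh1l2, the mitochondrial enzyme that oxidises formyl-tetrahydrofolate, stood at 5, 71 and 11 counts for WT against 800, 892 and 743 for KO, a log2 fold change of 4.91 with an SE of 0.608 (adjusted p = 1.95e-04, edgeR). Mthfd1l, which acts in the same mitochondrial branch as Mthfd2 and Shmt2, stood at 58, 148 and 40 counts for WT against 270, 372 and 418 for KO, a log2 fold change of 2.21 with an SE of 0.413 (adjusted p = 0.00179). Gldc, the decarboxylase of the mitochondrial glycine cleavage system, stood at 2833, 2493 and 2206 counts for WT against 64, 91 and 84 for KO, a log2 fold change of -4.87 with an SE of 0.155 (adjusted p = 2.73e-07), and Amt, the aminomethyltransferase of that system, fell with -1.24 (SE 0.162, adjusted p = 2.57e-04). Gcsh, its carrier protein, was named after its values were seen and fell with -0.94. Aldh1l2 (6.34) and Mthfd1l (2.59) passed the factor of 1.5 in WT replicate 2, whereas Gldc and Amt were lower there than in WT replicate 1.

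Upstream of Atf4, 15 genes of the eIF2 kinases, eIF2, its exchange factor eIF2B and their regulators were tested, with 7 higher and 3 lower in KO. Of all tested genes, 31.8% passed as higher and 30.2% as lower, so the share passing here was near that of all genes. Eif2ak4, the kinase Gcn2 that senses uncharged tRNA, stood at 820, 722 and 694 counts for WT against 180, 207 and 180 for KO, a log2 fold change of -1.87 with an SE of 0.114 (adjusted p = 4.77e-06, edgeR). Eif2b3 (1.15), Eif2s2 (0.90) and Eif2s1 (0.80) rose. Eif2ak3, the endoplasmic reticulum kinase Perk, was looked up after its values were seen and did not pass, at 0.00 (SE 0.108, adjusted p = 0.985). None of the 15 passed the factor of 1.5 in WT replicate 2, and 7 of them were highest there. The shares of all tested genes were 4.08% and 33.1%.

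The other arms of the unfolded protein response, driven by Ire1 and Atf6, included 17 tested genes. Of these 7 passed as higher and 1, Sel1l, as lower in KO, beside 31.8% and 30.2% of all tested genes. Hspa5, the chaperone BiP, rose by 0.75 on the log2 scale (SE 0.170, adjusted p = 0.00496, edgeR), beside Herpud1 (0.69), Dnajb9 (0.66) and Manf (0.66). In WT replicate 2, 16 of 17 were the highest of the WT libraries, beside 33.1% of all tested genes. Yet 0 passed the factor of 1.5, beside 4.08% of all tested genes, and the largest ratio was 1.34 for Dnajb9.

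**Figure D4:**
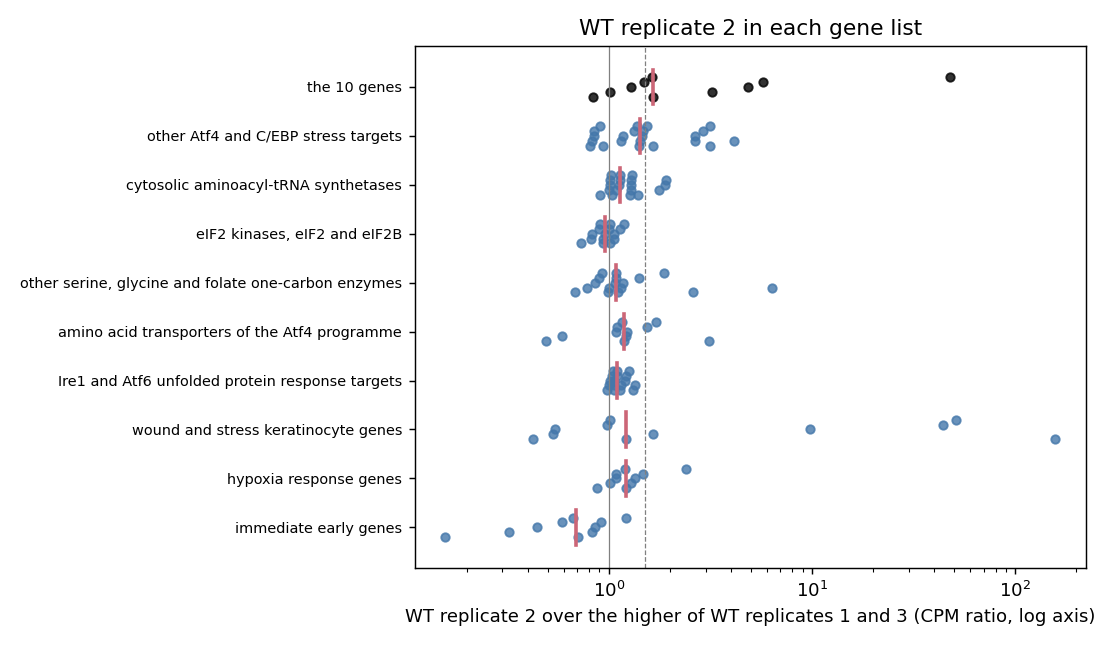
CPM ratio of WT replicate 2 to the higher of WT replicates 1 and 3 for each tested gene of the lists, on a log axis; red bars are medians, the dashed line is a ratio of 1.5, and genes at 0 in both other libraries are left out. The median was 1.65 for the 10 genes, 1.42 for other Atf4 targets, 0.955 for the eIF2 list and 0.688 for immediate early genes.

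Parts of further gene groups were also high in WT replicate 2. Of 12 wound and stress genes of keratinocytes, 8 were highest there among the WT libraries and 6 passed the factor of 1.5. For this and the groups below, the shares of all tested genes were 33.1% and 4.08%. Fst (0.426), Tnc (0.529), Hbegf (0.546) and Il1a (0.976) were instead below the higher of the other WT libraries. These 4 ratios were looked up after the values were seen. Krt16, a keratin of wounded and hyperproliferative epithelium, had 209.14, 18787 and 359.65 counts in WT, S100a9, an alarmin, had 17, 1263 and 28, and S100a8 had 0, 160 and 1. Krt16 gave 86803.6, 79507.5 and 94747 counts for KO, and for 0 of the 12 genes did WT replicate 2 lie above every KO library. RSEM gave Krt16 and Krt14 fractional counts, so part of their reads also fit other loci and these levels are uncertain. The basal keratin Krt14 had 5207.03, 25395.3 and 6712.08 counts in WT, and Col1a1, a stromal collagen, had 1, 26 and 8. The other limbal and basal markers did not follow Krt14, with ratios of WT replicate 2 to the higher of the other WT libraries of 1.03 for Trp63, 0.886 for Gpha2 and 0.847 for Krt15. The summed corneal markers were 93440, 96193 and 93034 CPM in the WT libraries. The stromal markers summed to 2.61 CPM in WT replicate 2 beside 0.687 and 1.23 CPM, with Lum at 0 counts in all 3. Of 10 hypoxia response genes, 9 were highest in WT replicate 2 and Bnip3 (2.41) passed the factor of 1.5. Of 10 immediate early genes, 1 was highest there and 0 passed it, and of 4 tested immune markers 1 was highest and 0 passed. The part of these groups in the levels of the 10 genes was not tested.

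Between genotypes, 11 of the 12 wound and stress genes passed as higher in KO (edgeR), with and without WT replicate 2, led by Sprr1b, Sprr2d, Tnc and Krt17. Of the 10 hypoxia genes 7 passed as higher and 1, Egln3, as lower, led by Bnip3 (log2 fold change 3.84) and Adm (2.27). Of the 10 immediate early genes 4 passed as higher, and 3 did without WT replicate 2. These counts stand beside 31.8% higher and 30.2% lower among all tested genes, and 31.2% and 26.9% without WT replicate 2.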

How the data were processed

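Total RNA of separated corneal epithelium was sequenced after rRNA depletion as single-end reads on a BGISEQ instrument, according to the study's methods, whereas the labels name an Illumina kit. Filtering was by SOAPnuke, alignment by Bowtie2 2.2.5 and counting per gene by RSEM 1.2.12, all run by the authors. The labels name mm9, but the chromosome accessions in the table are of GRCm38. The deposited table gives estimated counts, FPKM (per length and library total) and TPM, which the authors scaled to 1000000 per library and which served only to check that sum. Columns of the authors' own fold changes and p-values were not used. The estimated counts of the 10 genes were whole numbers.

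Estimated counts were rounded and tested in edgeR 4.0.16 (R 4.3.3, TMM, filterByExpr, glmQLFTest, with a term for genotype and no other). Adjustment was by Benjamini and Hochberg over 13305 genes. Each SE is the size of the log2 fold change over the root of its F value. The p-values set the genotype difference against the spread between these samples, and how many animals made up each sample is not stated. The procedure was tested on simulated counts with the same dispersion for every gene and no outlying library. That setting is simpler than these data, so it does not show how the fit handles a library such as WT replicate 2. The genes and lists were chosen with earlier results of these data known. From each list, up to 4 genes that passed with the largest log2 fold changes and up to 4 with the largest ratio in WT replicate 2 were named. Other genes are marked as named or looked up after their values were seen, as were Sel1l and Egln3, each the only lower gene of its list. Whether counting used strand is not stated. Alternatives were DESeq2 1.42.0, limma 3.58.1 on log2(FPKM + 1) and log2(FPKM + 0.1), RLE factors, library totals, no filter, a mean count of at least 50, a replicate block, and leaving out each library. Tables and plots used Python 3.11.15, pandas 2.3.3, numpy 2.4.6 and matplotlib 3.10.9. Ca9 and Cdh5 were not analysed here, and the values of 1 further listed gene are not reported here.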

Additional observations from a re-analysis of the deposited data

How the results depend on the processing

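Over 14 alternatives Atf4, Psat1, Psph and Shmt2 kept their direction and stayed past an adjusted p of 0.05, and Chac1 never passed. The number of the 10 genes called was 4 to 9 when 1 library was left out, with 9 only without WT replicate 2, and the number at the study's threshold was 0 to 7. The latter was 2 with a mean count of at least 50, 2 with the replicate block, 3 in DESeq2 and 0 in both limma fits. Over all genes, leaving out 1 library gave 7282 to 8145 calls, 3870 to 4254 higher and 3412 to 3936 lower, and 1832 to 2425 at the study's threshold. The sign of Atf5 turned with library totals only (-0.04), without WT replicate 1 (-0.20), without WT replicate 3 (-0.26) and without KO replicate 1 (-0.04), in each case without passing, and it passed only without WT replicate 2 (0.94).

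Deviations of libraries of the same number had r of 0.034, -0.010 and 0.061 between genotypes, and those of different numbers had -0.159 to 0.123. The labels state no pairing, and with 3 libraries in each group these values cannot decide whether there was one. With the replicate block 5 of the 10 genes were called, Asns being added (log2 fold change 1.61, adjusted p = 0.0339, edgeR). Trib3 passed in limma on log2(FPKM + 0.1), with 2.93 (adjusted p = 0.0439). The median log2 fold change of all genes was 0.11 in DESeq2, which was run without the filter on low counts, and 0.07 in edgeR without that filter. The genes covered therefore differed from those of the main fit. At 3 and 4 counts in WT replicates 1 and 3, depth limits how precisely the size of the Trib3 difference can be given.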
